A study of Mus musculus with 2 samples.

Results

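The small leucine-rich proteoglycans are secreted matrix proteins built around a curved stack of leucine-rich repeats, and 10 of their genes were followed here across the cells of mouse back skin: Dcn, Lum, Bgn, Fmod, Ogn, Prelp, Aspn, Podn, Omd and Kera. They were taken by symbol from the 31053 features of the count tables, and all 10 were present. Most of these proteins bind fibrillar collagen and limit how thick a fibril grows, and several also bind growth factors or innate immune receptors. They are sorted into classes by sequence. Decorin (Dcn), biglycan (Bgn) and asporin (Aspn) belong to class I, of which decorin and biglycan carry chondroitin or dermatan sulfate chains and asporin carries none. Lumican (Lum), fibromodulin (Fmod), keratocan (Kera), osteomodulin (Omd) and prolargin (Prelp) belong to class II, several of whose members carry keratan sulfate. Osteoglycin (Ogn) belongs to class III and podocan (Podn) to class V. In skin, decorin and lumican are known as products of dermal fibroblasts, and mice without decorin have fragile skin with irregular collagen fibrils.

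Back skin of full thickness came from 1 wild-type mouse (WT) and 1 Card14 knock-in mouse (Card14KI, genotype Card14 KI +/+), both C57BL/6 and 12 months old. CARD14 is a scaffold protein of NF-kB signalling in keratinocytes, and the series' title names the mutant as modelling pityriasis rubra pilaris. The change made to Card14 is not given in the labels. Each skin was digested with enzymes, freed of dead cells, and made into 1 droplet library of 3' transcript ends.

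After filtering, 4161 WT cells and 2835 Card14KI cells remained, holding 51098735 and 38637117 UMIs (counted transcript molecules). The median cell had 7302 UMIs in WT and 6920 in Card14KI. Since each genotype is a single animal, no test was made, and every interval below is a 95% interval for counting error only. The libraries shared 2 cell barcodes. Cells were sorted into classes by marker genes that include none of the 10 genes. Fibroblasts made up 2134 WT cells (51.3%) and 1351 Card14KI cells (47.7%), and all 8 fibroblast markers were detected in at least 61.7% of them in each library. Levels are given as CPM, the gene's UMIs summed over the cells of a class and scaled to the usual counts-per-million total of that class.

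Fibroblasts were divided further by markers. The Pi16-marked subset (326 WT and 401 Card14KI cells) carries markers of adventitial and fascia fibroblasts. The Myoc Gpx3 subset held 328 and 198 cells, the complement-rich subset 101 and 94, and the collagen-rich subset 338 and 65. A further gate used tendon genes, but only Tnmd, Mkx and Thbs4 were detected in at least 10% of its 162 and 63 cells, while Scx and Cilp2 were nearly absent, so it is called by those genes and not as tendon. The papilla-marker subset (79 and 36 cells) carries markers of papillary and dermal papilla fibroblasts, 8 of 9 of them detected in at least 10% of its cells. The sheath-marker subset (led by Lrrc15, Mmp11, Col11a1, Acta2 and Tagln, markers used for the contractile sheath of the hair follicle) held 212 WT cells but 12 Card14KI cells, under the minimum of 20 cells, so it has a level in WT only. Of its 7 markers, 6 were detected in at least 10% of the WT cells, with Edil3 in 13.2% and Acan in 8.49%. No subset was assigned to 588 and 482 fibroblasts.

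Most of the genes lie in 3 clusters of the mouse genome (GRCm38). Dcn (chr10:97479609-97518143, plus strand), Lum (chr10:97565128-97572703) and Kera (chr10:97606879-97613692) stand in a row, with Epyc beyond them. Aspn (chr13:49544443-49567565), Omd (chr13:49582462-49592822) and Ogn (chr13:49608046-49624501) follow one another on the plus strand downstream of Ecm2, with gaps of 14.9 kb and 15.2 kb. Prelp (chr1:133910304-133921414, minus strand) and Fmod (chr1:134037254-134048277, plus strand) are 115.8 kb apart. Podn (chr4:108014791-108096445, minus strand) and the X-linked Bgn (chrX:73483602-73495933, plus strand) stand alone.

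The upstream sequences of Bgn, Ogn and Aspn are shown because Bgn was lowest in the Pi16-marked subset, where Ogn stood above the other fibroblasts, and because Ogn and Aspn, with Omd between them in the genome, differed between the libraries in opposite directions. Each is the 250 bases before the RefSeq start (GRCm38.p6), read on the strand of the gene, at chrX:73483351-73483600, chr13:49607765-49608014 and chr13:49544193-49544442. Capitals mark every match, on either strand, to the TATA box (letters TATAAA), the CCAAT box (letters CCAAT), the GC box (letters GGGCGG) or the AP-1 site (letters TGANTCA, where N is any base).
Bgn: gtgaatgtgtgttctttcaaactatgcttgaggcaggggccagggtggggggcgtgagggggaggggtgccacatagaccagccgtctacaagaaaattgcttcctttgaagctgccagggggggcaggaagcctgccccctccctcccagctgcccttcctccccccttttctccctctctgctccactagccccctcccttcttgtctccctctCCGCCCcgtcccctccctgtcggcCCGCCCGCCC
Ogn: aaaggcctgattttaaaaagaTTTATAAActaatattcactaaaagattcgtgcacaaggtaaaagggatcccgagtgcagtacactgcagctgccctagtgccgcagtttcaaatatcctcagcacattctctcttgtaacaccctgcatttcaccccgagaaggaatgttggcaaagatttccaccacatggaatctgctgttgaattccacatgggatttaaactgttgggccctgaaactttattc
Aspn: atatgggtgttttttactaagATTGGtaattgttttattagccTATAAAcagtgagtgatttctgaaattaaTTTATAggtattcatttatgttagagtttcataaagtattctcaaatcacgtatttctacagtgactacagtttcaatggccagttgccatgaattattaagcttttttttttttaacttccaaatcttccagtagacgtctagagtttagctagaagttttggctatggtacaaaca

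The Bgn window was 64.4% G and C, above 81.6% of the 32851 promoter windows of the same length, and held the GC box letters at 3 places, all in the last 34 bases before the start and 2 of them overlapping. The Ogn window was 42.0% G and C, and its capitals are the TATA box letters once on each strand, overlapping. The Aspn window was poorer in G and C than most, above 1.47% of all windows, and held the TATA box letters at 2 places and those of the CCAAT box at 1. Among all windows, the TATA box letters were found in 12.4%, the CCAAT box in 33.8%, the GC box in 32.7% and the AP-1 site in 6.75%. RefSeq entries were found for 8 of the 10 genes, none for Dcn and Lum. Of the rest, Prelp held the CCAAT box at 1 place and Kera at 3, 1 of the 2 Podn windows held the GC box at 2, and the Fmod and Omd windows held none of these letters. These are matches of letters and say nothing about binding.

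In both libraries the family was largely a fibroblast product. Of all UMIs of the 10 genes in kept cells, 98.0% in WT and 98.1% in Card14KI lay in fibroblasts, and they made up 1.67% and 1.77% of everything counted in those cells. Dcn alone held 68.4% of the family's fibroblast UMIs in WT and 74.5% in Card14KI. Lum followed with 12.5% and 11.5%. Bgn was next in WT with 8.79% but held 3.35% in Card14KI, behind Ogn with 7.83%. UMIs count molecules near the 3' end, so these shares need no correction for length, but how well each transcript is captured is not known.

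**Figure D1:**
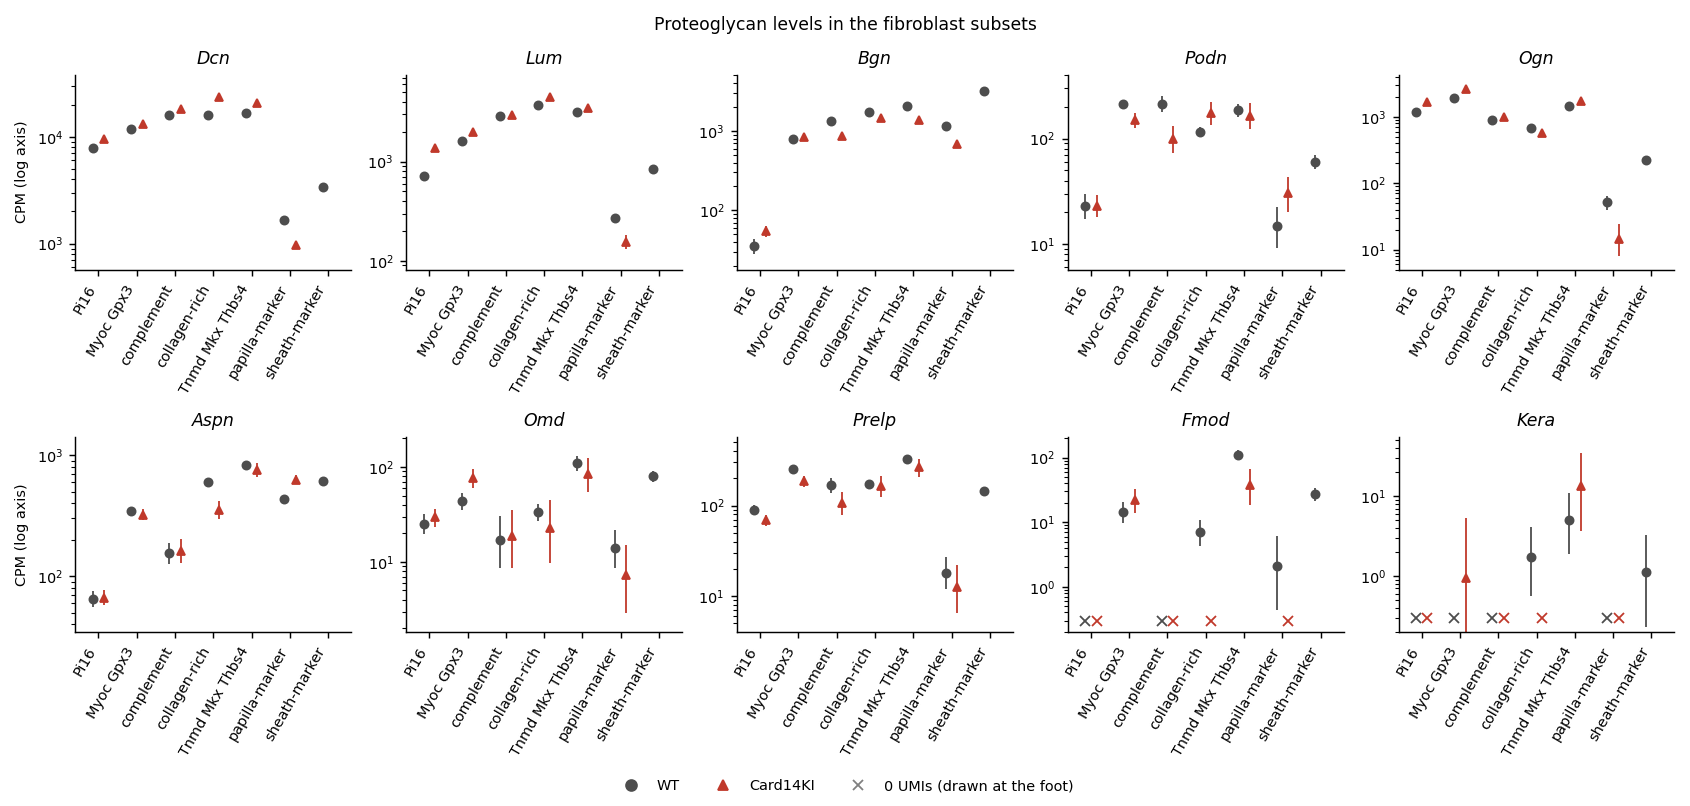
Levels of the 10 genes (CPM, log axis, each panel with its own range) in the 7 fibroblast subsets, WT as circles and Card14KI as triangles, with exact Poisson 95% intervals and crosses for 0 UMIs. Bgn was lowest in the Pi16-marked subset (35.6 and 55.0 CPM), where Ogn stood at 1169 and 1649 CPM. The sheath-marker subset has no Card14KI level.

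Among the class I genes, Dcn was high in every subset but the sheath-marker and papilla-marker ones. In WT it stood at 7904 CPM in the Pi16-marked, 11717 in the Myoc Gpx3, 16056 in the complement-rich, 15863 in the collagen-rich and 16702 in the Tnmd Mkx Thbs4 subset. In Card14KI the same subsets held 9479, 13155, 18193, 23385 and 20719.9 CPM. Dcn was much lower in the sheath-marker subset (3416 CPM in WT) and lowest in the papilla-marker subset, at 1674 CPM and 973 CPM in WT and Card14KI. In the order of the WT subsets only complement-rich and collagen-rich overlapped in their counting intervals, and in Card14KI no neighbours overlapped.

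Bgn, the closest relative of Dcn, had another order. It was highest in the WT sheath-marker subset at 3137 CPM (3070.4 to 3204), followed by the Tnmd Mkx Thbs4 subset with 2064 CPM, the collagen-rich with 1733, the complement-rich with 1333, the papilla-marker with 1151 and the Myoc Gpx3 with 783. In Card14KI the collagen-rich (1449 CPM) and Tnmd Mkx Thbs4 (1389.7 CPM) subsets led, with overlapping intervals. The Pi16-marked subset stood far below all others, at 35.6 CPM in WT (90 UMIs in 326 cells) and 55.0 CPM in Card14KI (159 UMIs in 401 cells). That was 47.9-fold (38.9 to 59.6) below the other fibroblasts in WT and 15.7-fold (13.4 to 18.6) below them in Card14KI, whereas Dcn differed by 1.52-fold and 1.59-fold in the same comparison. T and innate lymphocytes, where the gene is not known to be expressed, held 5.16 CPM (6 UMIs) in WT and 2.03 CPM (1 UMI) in Card14KI.

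The contrast between both class I genes was also seen cell by cell. With every cell thinned to 2000 UMIs, Dcn without Bgn was detected in 94.3% of 315 Pi16-marked WT cells and 91.7% of 397 Card14KI cells, against 10.0% and 16.7% of collagen-rich cells. In the papilla-marker subset the reverse was the most common single pattern in WT, with Bgn and no Dcn in 46.4% of 69 cells, and 30.3% of 33 cells in Card14KI. Bgn without Dcn was found in none of the thinned Pi16-marked cells of either library. A count of 0 among such a number of cells covers detection at this depth only.

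Aspn, like Bgn, was lowest in the Pi16-marked subset of both libraries, at 64.8 and 66.4 CPM. It was highest in the Tnmd Mkx Thbs4 subset, with 836 CPM in WT and 757 in Card14KI. The WT sheath-marker and collagen-rich subsets (609.9 and 597 CPM) could not be told apart by their intervals. In Card14KI the papilla-marker subset came second with 629 CPM, overlapping the first.

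Among the class II genes, Lum kept close to the order of Dcn. It ranged in WT from 269 CPM in the papilla-marker subset to 3742 CPM in the collagen-rich subset, and in Card14KI from 154 to 4482 CPM in the same subsets. Prelp was highest in the Tnmd Mkx Thbs4 subset (325 CPM in WT and 264 in Card14KI) and lowest in the papilla-marker subset (18.3 and 12.5 CPM), although in Card14KI its top 4 subsets overlapped from neighbour to neighbour. Omd also peaked in the Tnmd Mkx Thbs4 subset, at 109 and 84.5 CPM. Most neighbours in the order of Omd overlapped, 5 of 6 in WT and 4 of 5 in Card14KI, so little more can be said of it.

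Fmod and Kera were sparse and local. Fmod, which shares its collagen site with lumican, had 297 UMIs in WT fibroblasts and 41 in Card14KI fibroblasts. Of those, 131 (44.1%) and 11 (26.8%) lay in the Tnmd Mkx Thbs4 subset, where it stood at 111 CPM (92.9 to 132) in WT and 37.2 CPM (18.6 to 66.6) in Card14KI, or 11.1-fold and 10.3-fold above the other fibroblasts. The 131 WT UMIs lay in 17 of the 162 cells, and the 11 Card14KI UMIs in 3 of 63, with 7 in 1 cell. In Card14KI most of the few Fmod UMIs (23, or 56.1%) lay in the Myoc Gpx3 subset, whose interval overlapped. Those 23 came from 9 cells, with 10 in 1 cell. No Fmod UMI was found in the Pi16-marked cells of either library, which by the interval allows up to 1.46 CPM in WT and 1.28 CPM in Card14KI. Kera, known for its part in the clear cornea, had 22 and 25 UMIs in all fibroblasts and was seen in 0.703% and 0.740% of them. In clusters made without these genes, 1 unnamed cluster led by Mfap4, S100a4 and Cyp26b1 held 24 of the 25 Card14KI Kera UMIs, or 72.8 CPM in 73 cells, and 9 of the 22 WT UMIs, or 7.54 CPM in 155 cells.

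Ogn, the class III gene, had another order again. The Myoc Gpx3 subset led with 1921 CPM in WT and 2603 in Card14KI, 2.44-fold and 2.13-fold above the other fibroblasts. The Tnmd Mkx Thbs4 subset (1439 and 1704 CPM) and the Pi16-marked subset (1169 and 1649 CPM) followed, overlapping in Card14KI. Ogn was low in the WT sheath-marker subset (224 CPM) and lowest in the papilla-marker subset at 51.2 CPM in WT and 14.6 in Card14KI. Podn, the class V gene, was highest in WT in the complement-rich (215 CPM) and Myoc Gpx3 (213 CPM) subsets, with overlapping intervals, and stood at 22.9 and 23.2 CPM in the Pi16-marked subset. In Card14KI its highest level was in the collagen-rich subset (174 CPM), overlapping the next.

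Gating by markers and clustering without the 10 genes placed some cells differently, so the levels were also read by cluster. A cluster led by Cyp26b1, S100a4 and Serpina3n, which took no name, held the highest Dcn of all clusters, with 28457 CPM in 361 WT cells and 35031 CPM in 237 Card14KI cells, and Lum at 5419.8 and 5396 CPM. The cluster named by sheath markers held 310 WT and 73 Card14KI cells, of which 64 and 30 had passed the papilla-marker gate. There Bgn stood at 2343 CPM in WT and 634 in Card14KI, Dcn at 1808 and 502, and Aspn at 524 and 606. Of all clusters, Bgn was highest in the unnamed one led by Mfap4, S100a4 and Cyp26b1 (the Mfap4 cluster). It stood there at 2513 CPM in 155 WT cells and 2002 CPM in 73 Card14KI cells. Bgn was also lower in Card14KI in the collagen-rich cluster, at 1879 CPM in 280 WT cells and 609 CPM in 48 Card14KI cells, and in an unnamed cluster led by Cyp2f2, at 1320 CPM in 94 and 549.7 CPM in 123 cells. It was close in the Cyp26b1 cluster (1435 and 1493 CPM) and in the larger Myoc cluster (1030.5 and 1233 CPM). The low Bgn of Pi16-marked cells was present by cluster too, at 20.6 and 39.6 CPM in the larger Pi16 cluster. No cluster took the Tnmd Mkx Thbs4 name. Cells of that gate were spread over several clusters, 56 WT and 14 Card14KI cells in the Mfap4 cluster. In WT that cluster led in Aspn (771 CPM), Omd (155 CPM) and Fmod (50.3 CPM). In Card14KI the sheath-marker cluster led in Aspn (606 CPM) and the smaller Myoc cluster in Omd (122 CPM) and Fmod (38.8 CPM). Prelp led in the smaller Myoc cluster of both (340 and 270 CPM). Apart from Aspn and Omd in WT, these leads overlapped the next cluster.

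Between the libraries, the family split. Over all fibroblasts, Dcn stood at 11412 CPM in WT and 13225 in Card14KI (1.16-fold higher in Card14KI, 1.15 to 1.17), and Lum at 2090.3 and 2037 CPM (ratio 0.975). Bgn was 2.47-fold lower in Card14KI (2.39 to 2.54), from 1466 to 595 CPM. Ogn was 1.5-fold higher (1.47 to 1.54), from 925 to 1389 CPM, a fold that only just meets the limit of 1.5 used here. Aspn was 1.65-fold lower (1.58 to 1.73), from 446 to 270.0 CPM, and Prelp 1.63-fold lower (1.52 to 1.76), from 171 to 105 CPM. Fmod was 3.51-fold lower (2.53 to 5.0), from 16.7 to 4.75 CPM. Podn (107 and 77.9 CPM) and Omd (49.6 and 35.6 CPM) were 1.38-fold and 1.39-fold lower, and Kera was 2.34-fold higher from 1.24 to 2.89 CPM, on 22 and 25 UMIs. These are differences between 1 library and 1 library, and fewer cells of a kind and less RNA per cell cannot be told apart in such sums.

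Of the 10 genes, all with at least 20 UMIs, 2 were at least 1.5-fold higher in Card14KI fibroblasts (Ogn and Kera) and 4 at least 1.5-fold lower (Bgn, Fmod, Prelp and Aspn). Of the 13388 genes measured in fibroblasts, 7.54% were higher and 15.2% lower by the same limit. The median log2 ratio of CPM + 10 was -0.40 over the 10 genes and -0.08 over all genes.

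**Figure D2:**
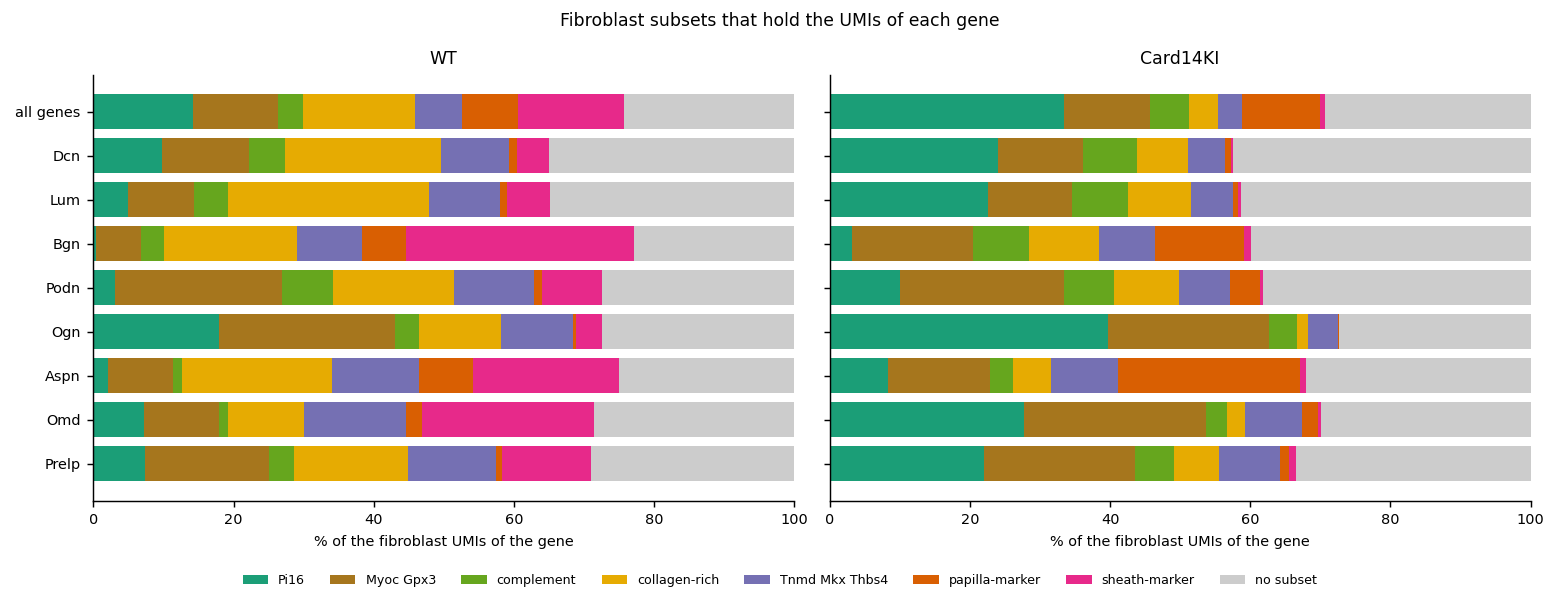
Share of the fibroblast UMIs of all genes and of 8 proteoglycan genes that lay in each subset (horizontal axis, %), in WT (left) and Card14KI (right). The sheath-marker subset held 32.5% of the Bgn UMIs in WT and 1.11% in Card14KI. The Pi16-marked subset held 33.5% of all fibroblast UMIs in Card14KI and 14.2% in WT.

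The makeup of the fibroblasts differed along with these sums. The sheath-marker subset was 9.93% of WT fibroblasts and 0.888% of Card14KI fibroblasts. It had the highest Bgn of the gated WT subsets and held 8491 of the 26111 WT Bgn UMIs. By cluster, the Mfap4 cluster stood above the one named by sheath markers (2513 and 2343 CPM in WT). The Pi16-marked subset, with the lowest Bgn, was 15.3% and 29.7%. The collagen-rich subset was 15.8% and 4.81%. With the subsets given the same weights in both libraries, the log2 ratio of Bgn went from -1.29 to -0.48, that of Aspn from -0.70 to -0.36, and the count of genes at least 1.5-fold lower from 4 to 1. That alternative leaves out the sheath-marker subset. Without the sheath-marker cells alone, Bgn stood at -0.97 and Aspn at -0.61. These alternatives rest on the gates, whose collagen-rich cells held Bgn at 1733 CPM in WT and 1449 in Card14KI. By cluster, Bgn stood at 1879 and 609 CPM in the collagen-rich cluster, and at 1435 and 1493 CPM in the Cyp26b1 cluster. How much of the ratios is makeup was not tested. Inner root sheath cells, another hair follicle class, numbered 163 in WT and 1 in Card14KI, and their part in these ratios was not tested.

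**Figure D3:**
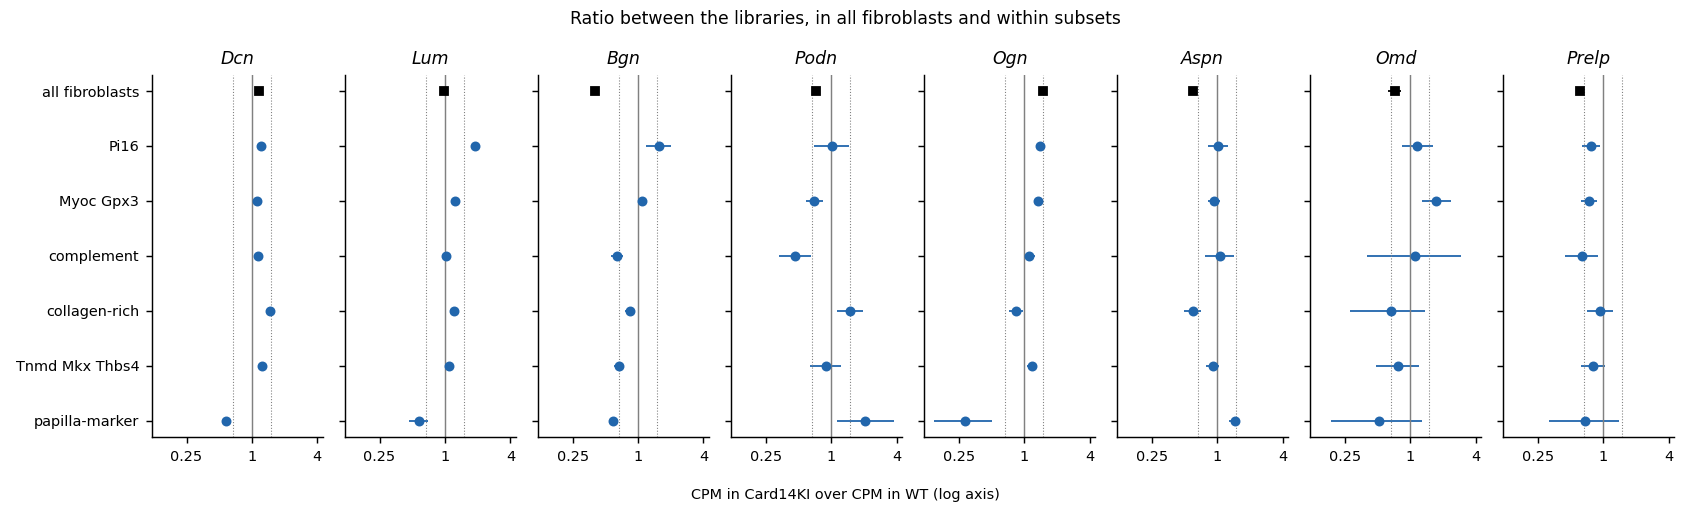
CPM in Card14KI over CPM in WT (log axis) for 8 genes in all fibroblasts (squares) and within 6 subsets (circles), with exact conditional 95% intervals and dotted lines at 1.5-fold. Points with 0 UMIs in a library or under 20 in all are not drawn. Lum was within the limit over all fibroblasts (0.975) and 1.90-fold higher within the Pi16-marked subset.

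The counts of differing genes varied between subsets. In the Pi16-marked subset 2 of 8 measured genes were higher (6.13% of all genes there) and 0 lower (12.3%). Lum was 1.90-fold higher in Card14KI (1.79 to 2.01), at 724 CPM in WT and 1373 in Card14KI, and Bgn 1.55-fold higher (1.19 to 2.03), at 90 and 159 UMIs. The share of cells with a Bgn UMI was no higher, 12.9% in WT and 12.2% in Card14KI, and 1 Card14KI cell held 19 of the 159 UMIs. Of the gated cells, 2 in WT and 11 in Card14KI lay in the Cyp26b1 cluster and 9 Card14KI cells in the Cyp2f2 cluster, both far richer in Bgn. Over all cells of the larger Pi16 cluster Bgn was higher in Card14KI (20.6 and 39.6 CPM), and in a cluster led by Cxcl1, Ptgs2 and Ptx3, which held 73 and 109 of the gated cells, it was lower (159 and 53.0 CPM). No direction of Bgn within this subset is read from these values. Ogn was 1.41-fold higher there and Dcn 1.20-fold. Over the larger Pi16 cluster Dcn stood at 8088 and 8796 CPM, Lum at 744 and 1228 and Ogn at 1261 and 1774. Over the cluster led by Cxcl1 they stood at 7506 and 7951, 678 and 1185, and 902 and 1390 CPM. In the Myoc Gpx3 subset 2 of 9 were higher (7.24% of genes), Omd at 43.7 and 75.8 CPM and Fmod on 31 and 23 UMIs (0.841 to 2.68 around a ratio of 1.51), and 0 lower (16.0%). Bgn (783 and 843 CPM) and Aspn (344 and 322 CPM) were within the limit there. The cells of this gate were spread differently, with 223 WT and 92 Card14KI cells in the larger Myoc cluster and 86 and 77 in the smaller. Over all cells of those clusters, Omd stood at 29.3 and 40.2 CPM in the larger and 89.3 and 122 CPM in the smaller. It was higher in Card14KI in each, with overlapping intervals. The part of this mix in the Omd ratio of the gate was not tested.

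In the collagen-rich subset 1 of 9 was higher (13.7% of genes) and 1 lower (18.4%). Podn went from 116 to 174 CPM and Aspn from 597 to 355 CPM, while Dcn was 1.47-fold higher, at 15863 and 23385 CPM. The gated cells lay mostly in the collagen-rich cluster (151 WT and 24 Card14KI) and the Cyp26b1 cluster (131 and 28). Podn stood at 103 and 85.7 CPM over the collagen-rich cluster, with overlapping intervals, and at 128 and 186 CPM over the Cyp26b1 cluster. In the complement-rich subset 0 of 8 were higher (10.5% of genes) and 3 lower (17.4%). These were Bgn (1333 and 852 CPM), Prelp (168 and 106 CPM) and Podn (138 and 48 UMIs, 2.15-fold lower, 1.54 to 3.05). Most of its WT cells (69 of 101) lay in a cluster led by Myoc, while its Card14KI cells were spread over several clusters, so the cells compared there may not be alike. In the Tnmd Mkx Thbs4 subset 0 of 9 were higher (11.0% of genes) and 1 lower (19.9%), namely Fmod, with Bgn just within the limit at 1.49-fold lower.

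The papilla-marker subset held the largest share of lower genes, 5 of 8 (20.2% of all genes), with 1 higher (7.51%). Dcn, Lum, Bgn, Ogn and Omd (20 and 7 UMIs) were lower in Card14KI and Podn higher on 21 and 29 UMIs, while Aspn was 1.44-fold higher and within the limit. The 36 Card14KI cells of this subset were far deeper than the 79 WT cells, with a median of 32661 and 5641 UMIs, and the part of that gap in these ratios was not tested. Among fibroblasts of no subset 1 of 10 was higher (6.12% of genes) and 5 lower (15.2%). Kera was higher, on 8 and 20 UMIs in 5 WT and 7 Card14KI cells. Bgn, Fmod (39 and 7 UMIs), Prelp, Aspn and Omd were lower.

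Outside fibroblasts the genes fell to low levels, with exceptions. Free RNA from lysed cells reaches every droplet, and if it came from fibroblasts alone it would hold the 10 genes in the proportions seen in fibroblasts. In T and innate lymphocytes Dcn stood at 0.551% of its fibroblast CPM in WT and 0.245% in Card14KI, and Bgn at 0.352% and 0.341%. With cells thinned to 2000 UMIs, Dcn was detected in 12.4% of WT and 4.07% of Card14KI lymphocytes, against 95.7% and 97.9% of fibroblasts, and 19.1% and 11.2% of lymphocytes unthinned.

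**Figure D4:**
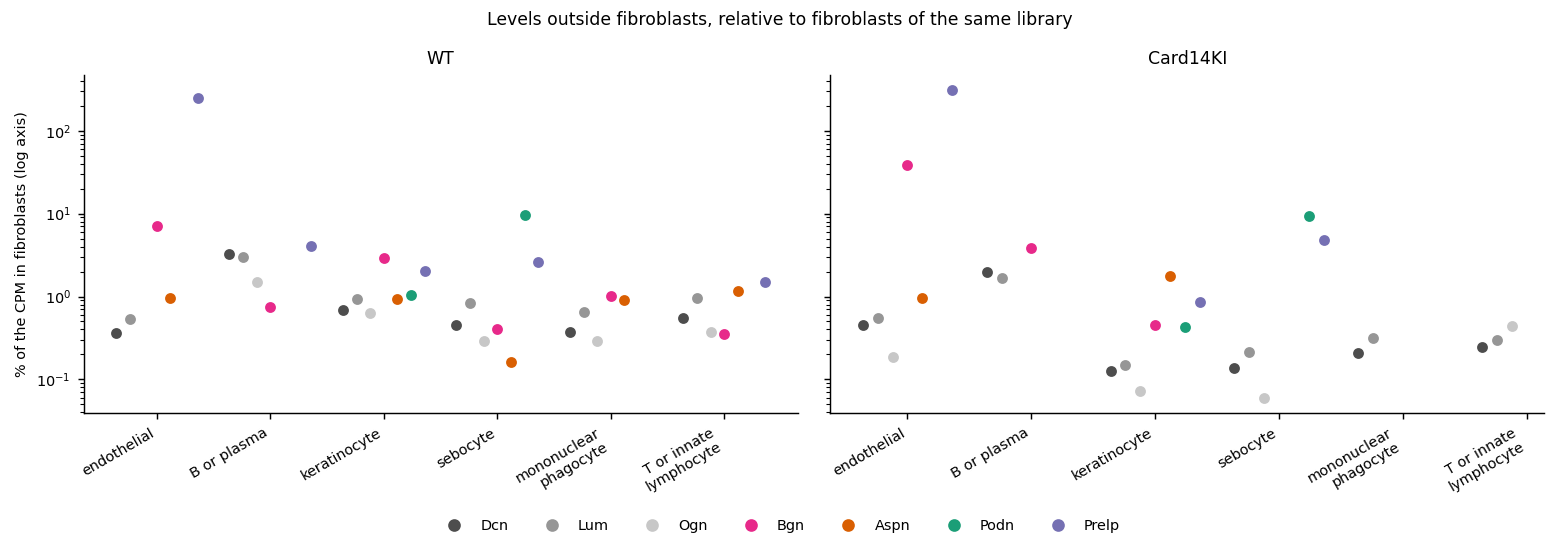
Level of 7 genes in 6 other classes as a percentage of the CPM in fibroblasts of the same library (log axis), WT left and Card14KI right, with points of under 3 UMIs left out. Prelp in endothelial cells (249% and 311%), Bgn in endothelial cells (7.04% and 38.3%) and Podn in sebocytes (9.74% and 9.36%) stood apart from Dcn and Lum in the same class.

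Prelp was the clearest exception. Endothelial cells, blood and lymphatic together, held it at 427 CPM (390.0 to 466) in 89 WT cells and 326 CPM (294 to 361) in 73 Card14KI cells, above the fibroblast level in both. It was detected in 71.9% and 74.0% of these cells. Only 82.6% of all Prelp UMIs in WT and 67.0% in Card14KI lay in fibroblasts, the lowest share of the 10 genes in each library. Bgn was also found in endothelial cells, at 103 CPM (85.6 to 123) in WT and 228 CPM (201 to 257) in Card14KI, with 23 of 120 and 53 of 263 UMIs in the top cell. This was 2.21-fold higher in Card14KI (1.77 to 2.76). These cells were mostly lymphatic by their markers, with Prox1 in 84.3% and 82.2% of them, and the markers differed between the libraries, with Lyve1 in 74.2% and 45.2% and Reln in 89.9% and 72.6%. The part of this in the Bgn ratio was not tested. Dcn in the same endothelial cells stood at 0.362% and 0.452% of its fibroblast level, with 39 of its 69 Card14KI UMIs in 1 cell.

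Podn was found in sebocytes at 10.5 CPM (58 UMIs in 209 cells) in WT and 7.30 CPM (35 UMIs in 182 cells) in Card14KI, with at most 3 and 2 UMIs in a cell. WT keratinocytes held Bgn at 42.3 CPM, or 2.88% of the fibroblast level, whereas Dcn stood there at 0.685% of its fibroblast level. Bgn was detected in 18.5% of these cells and Dcn in more, 32.5%, with 278 of its 1177 UMIs in 1 cell. In Card14KI keratinocytes Bgn was at 2.71 CPM. Aspn in Card14KI keratinocytes rested on few cells, 100 UMIs in 1.32% of 759 cells. B or plasma cells held Dcn at 372 and 264 CPM, but 149 of 268 and 64 of 92 UMIs lay in 1 cell each. Mural cells were under 20 in each library and are given as counts only: the 12 WT cells held 49 UMIs of Bgn and 54 of Aspn, and 2 of Dcn.

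The other genes of the matrix that these proteins act on were read from lists, whose counts stand beside 15.2% lower and 7.54% higher over all genes measured in fibroblasts. Fibrillar collagens and their partners differed most: 10 of 11 were at least 1.5-fold lower in Card14KI fibroblasts and 0 higher, with a median log2 ratio of -1.28, against -0.08 over all genes. Col1a1 stood at 10059.9 CPM in WT and 2698 in Card14KI, Col3a1 at 8318 and 2541, Col5a2 at 712 and 248, and the fibril-associated Col12a1 at 267 and 30.1. Several of these collagens are also markers of the fibroblast gate and of the collagen-rich subset, so they are not independent of the grouping. Within the Pi16-marked subset, Col1a1 stood at 1902 and 1349 CPM, while Lum was higher in Card14KI there.

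Of 17 measured genes of cross-linking and fibril assembly, 5 were lower and 0 higher (median -0.16), against 15.2% and 7.54% of all genes, and with so few genes nothing is read from the count. Lox, which oxidises collagen lysines, stood at 249.8 and 126 CPM, Loxl2 at 175 and 105, and the lysyl hydroxylases Plod1 at 67.8 and 30.6 and Plod2 at 69.1 and 27.4. Of 21 measured genes for building the linker and the chondroitin or dermatan sulfate chain, 5 were lower and 1 higher (median -0.28), against 15.2% and 7.54% of all genes. Csgalnact1, which starts the chondroitin chain on the linker, stood at 38.9 and 5.79 CPM and so was 6.72-fold lower in Card14KI (5.04 to 9.15). In WT it was highest in the sheath-marker subset at 94.6 CPM. Chsy1, which extends the chain, stood at 28.2 and 14.7 CPM, and B4galt7, an enzyme of the linker, at 10.3 and 5.91. The uronyl sulfotransferase Ust was 1.52-fold higher, at 27.1 and 41.2 CPM. Of 12 genes of keratan sulfate, sulfate supply and tyrosine sulfation, 1 was lower (Chst2, 74 and 23 UMIs) and 1 higher (B3gnt2, 24 and 20 UMIs), with a median of -0.08 and intervals of both ratios that include 1.

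**Figure D5:**
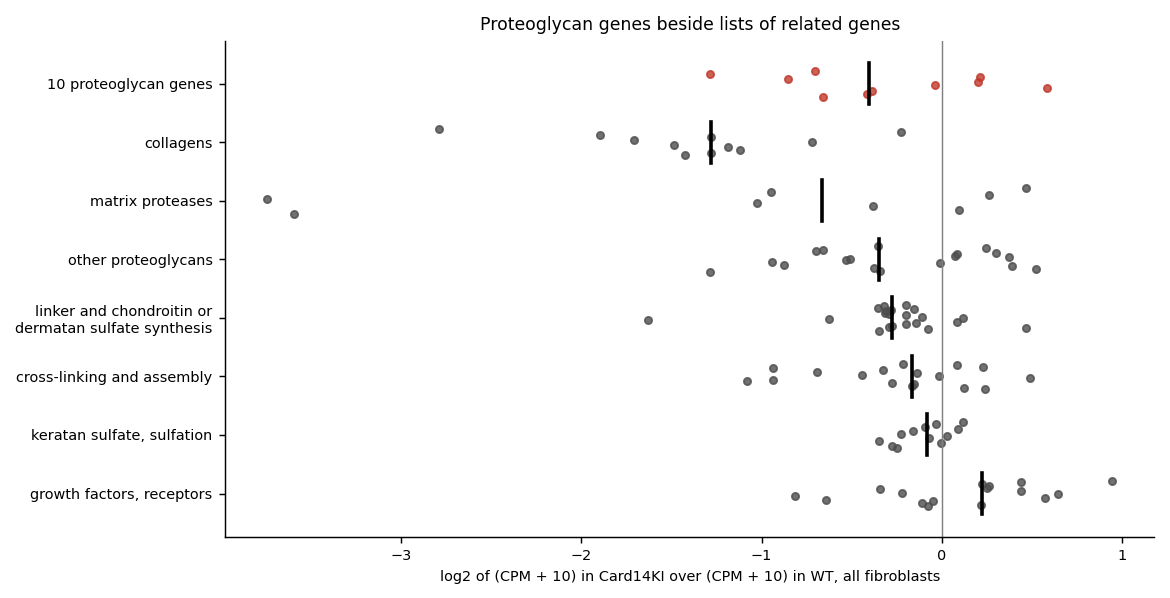
Log2 ratio of CPM + 10, Card14KI over WT, in all fibroblasts for the 10 proteoglycan genes and 7 lists, each point a gene with at least 20 UMIs and each bar the median. The medians of the proteoglycan genes and of the collagens were -0.40 and -1.28.

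Matrix proteases known to cleave these proteins held 4 lower and 0 higher genes of 8 (median -0.67). Mmp13, a collagenase, had 2228 UMIs in WT fibroblasts and 1 in Card14KI, and Mmp9, a gelatinase, 1972 and 0, at least 319-fold lower when 3 UMIs stand for the 0. In WT both were highest in the sheath-marker subset, at 773 and 676 CPM. That subset held 12 Card14KI cells by the gate, while the cluster named by sheath markers held 73. Its part in these differences was not tested. Mmp14 stood at 574 and 277 CPM and Adamts4 at 36.1 and 13.9. Of 16 growth factors and receptors known to bind these proteins, 4 were higher and 2 lower (median 0.22). Tgfb1, a ligand of decorin and biglycan, stood at 47.3 and 22.6 CPM and Tgfb3 at 35.3 and 19.0, while Bmp2 stood at 34.9 and 76.4 and Met at 10.4 and 21.9. Of 18 other proteoglycan genes 8 were lower and 2 higher (median -0.35), among them Vcan (274 and 106 CPM), Sdc1 (46.6 and 19.5), Sdc3 (28.3 and 10.9) and Gpc1 (23.5 and 10.7). Of 5 measured genes of the wider leucine-rich family, 1 was higher (Epyc, 12 and 11 UMIs) and 1 lower (Podnl1, 21 and 1 UMIs), with a median of -0.08. Bgn is X-linked, and Xist stood at 883 and 825 CPM in the fibroblasts of both libraries, while 4 Y-linked genes held 1 UMI in WT and none in Card14KI.

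Across 14 classes and subsets in both libraries (28 sums, 7 of the 14 being fibroblasts, namely 6 subsets and the cells of no subset, so that much of any likeness is the difference between fibroblasts and other cells), the genes most like each member were named by Pearson's r of log2 CPM + 10, as a description. Dcn was nearest to Rarres2 (0.992), Lum (0.991) and Fbln1 (0.986), and Lum to Dcn, Rarres2 and Ctsk (0.980). Bgn was nearest to Igfbp7 (0.981), Col15a1 (0.962) and Scarf2 (0.961), with r of 0.848 to Dcn. Aspn was nearest to Prrx2, Rpl39l and Cilp (0.983 to 0.979), and of the family to Bgn (0.919). Ogn was nearest to Ms4a4d, Dpep1 and Pamr1 (0.987 to 0.982), and Podn to Asap3, Entpd2 and Svep1 (0.974 to 0.966). Prelp was nearest to Ldb2, Lbp and Casp12 (0.967 to 0.957), and Omd to Galnt17, Srpx2 and Lox (0.961 to 0.959). Fmod was nearest to Col8a2, Thbs4 and Tnmd (0.918 to 0.888) and Kera to Thbs4, Mkx and Tnmd (0.889 to 0.853). Fbln1 is itself a fibroblast gate marker, and Thbs4, Mkx and Tnmd are markers of the gate in which Fmod was highest, in Card14KI with an overlapping neighbour. The few Kera UMIs lay mostly elsewhere, with 6 in WT and 4 in Card14KI in that gate, so the r values of Kera rest on very few molecules.

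Markers of other cells were found in the fibroblasts at a small part of their level in their own class. The 8 sebocyte markers summed highest, to 522 CPM in WT and 615 in Card14KI, against 27781 and 31983 in sebocytes. The 4 neutrophil markers summed to 160 and 247 CPM and the 5 red cell markers to 34.1 and 149, both higher in Card14KI. The 11 keratinocyte markers summed to 305 CPM in WT fibroblasts and 348 in Card14KI fibroblasts, against 36172 and 44514 in keratinocytes, with none at 0. The 7 blood endothelial markers summed to 36.6 and 33.6 CPM, against 5386 and 4539 in their own class. The 8 mural markers, which include Acta2 that also marks the sheath subset, summed to 280 and 138 CPM, with 1 and 2 at 0. The 5 inner root sheath markers summed to 140 and 4.52 CPM, with 0 and 1 at 0. The part of these differences in the ratios of the 10 genes was not tested.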

How the data were processed

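The authors deposited raw UMI counts, not normalized, for each gene in each barcode called as a cell. Counting used Cell Ranger 6.0.2 and mm10 per the submitters' processing notes, but Cell Ranger 5.0.0 per the file headers. Barcodes with under 500 genes or 20% or more mitochondrial UMIs were removed. Scrublet marked 2 and 4 cells, taken as not having worked, so the 174 WT and 78 Card14KI cells with the highest scores were removed (0.8% per 1000 cells). This kept 51098735 and 38637117 UMIs. Each cell took the class with the highest marker score (at least 0.15, and 0.05 above the next), and fibroblasts a subset (raw score 0.15, z-score 0.5, margin 0.25). These limits were set after the cells were seen. The 10 genes and the lists were chosen with earlier results of these data known. Cells are not replicates, so with 1 library per group no test was made. Counts were summed per class. Intervals at 95% are exact Poisson for levels, conditional binomial for ratios and Clopper-Pearson for shares. Only those for ratios were tried on simulated data. These counts were drawn with Poisson error alone, so the trial does not cover UMIs piled up in single cells. Log2 ratios use CPM + 10. Calls need 1.5-fold and 20 UMIs, and a count of 0 is set to 3. Classes need 20 cells. Named were all 10 genes, up to 4 per list past 1.5-fold and furthest on the log2 scale, and the 3 genes most like each member. Of 31053 features, 30934 were located by gene ID in GENCODE vM21 (GRCm38). Tools were Python 3.11.15, scanpy 1.11.5 and SciPy 1.17.1.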

Additional observations from a re-analysis of the deposited data

How the results depend on the processing

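No paired analysis was possible because each genotype has 1 library, and no replicate could be left out. Under 12 alternatives, of which leaving out the sheath-marker cells was chosen after seeing the data, no ratio of the 10 genes that passed 1.5-fold changed direction. The median log2 ratio of the 10 genes (-0.40) moved to -0.17 with the same subset weights, to -0.23 with the mean over cells in place of sums, and to -0.46 with CPM + 1. The number at least 1.5-fold higher (2) became 1 with Leiden clusters, the same subset weights, the mean over cells, the total without these genes and collagens, and without the sheath-marker cells, and the number at least 1.5-fold lower (4) became 1 with the same subset weights. The log2 ratio of Bgn ran from -1.32 to -0.48, that of Aspn from -0.74 to -0.36, that of Ogn from 0.35 to 0.59, that of Dcn from 0.05 to 0.29, and that of Lum from -0.18 to 0.17, so that its sign depends on the setting. Weights cannot include the sheath-marker subset, which has under 20 cells in Card14KI. Low counts limit Kera (22 and 25 UMIs in all fibroblasts) and Fmod in Card14KI (41 UMIs).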
